A study of Homo sapiens with 4 samples.

Results

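Histone modifiers, DNA methylation enzymes and steroid receptor coregulators were described as a panel of 55 genes, listed by enzyme class. The panel was chosen with earlier results of these data known. On this Illumina bead array 20046 genes have a named probe. The cells were 22Rv1, an established human prostate cancer line, and each group comprised 2 arrays. One group received 10 µg/mL of the herbal extract WCE for 16 h and the other received vehicle alone. Both groups share the same line, and the labels name no further genotype or agent. Nothing in the labels states that the numbered arrays are independent cultures, and the p-values below therefore reflect array-to-array spread that could be purely technical.

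Of the 55 genes, 51 had at least 1 named probe, 84 probes in all. KDM5A, TET3, NCOA3 and NCOR1 had none in the annotation used and are not analysed here. Testing required a probe that WCE or vehicle cells showed on both their arrays at a detection p-value (set by negative control beads) under 0.05, and the brightest such probe stood for its gene. That left 47 tested genes and 61 kept probes, and 44 of the 47 were detected on all 4 arrays. The other 3 were HDAC9, HDAC11 and DNMT3A. SIRT3, SETD7, TET1 and TET2 did not reach the detection rule with any probe. These 4 genes have only raw signals near background, which allows no statement about a change.

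Chromatin carries its regulatory state as acetyl and methyl groups on histone tails and as methyl groups on DNA. Acetyltransferases and methyltransferases add these groups, deacetylases, demethylases and TET dioxygenases remove them, and bromodomain proteins bind acetylated histones. Steroid receptors work through several of the same proteins. p160 coactivators of the NCOA family and the acetyltransferases EP300 and CREBBP help them to activate genes, and corepressors such as NCOR1 and NRIP1 bring deacetylases to their targets.

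Median raw signals were 81.7 and 85.1 on the WCE arrays and 82.95 and 83.5 on the vehicle arrays, and between 45.24% and 48.86% of probes were detected. The WCE arrays lay farther apart than the vehicle arrays, with 338 of 47320 probes differing over 2-fold between the WCE arrays and 77 between the vehicle arrays. Of the markers of prostate epithelium examined, EPCAM, CDH1, KRT8, KRT18, HOXB13, KLK2 and TMPRSS2 were detected on all 4 arrays and KLK3 on none. PTPRC and CD3E of leukocytes and PECAM1, VWF and CDH5 of endothelium were detected on no array. Of the fibroblast markers, LUM and COL1A1 were detected on all 4 arrays, DCN on 3 and COL1A2 on 0. CD68, a lysosomal protein abundant in macrophages, was detected on all 4.

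None of the 47 tested genes passed limma's adjusted p of 0.05 over all 12136 genes, 0 higher and 0 lower after WCE. Over all tested genes 1.89% passed, 1.18% higher and 0.709% lower (143 and 86 genes, or 100 and 30 with median scaling), so a count of 0 among 47 lies near the background. Signals come from whole cultures, in which fewer cells expressing a gene and less RNA per cell cannot be told apart. At an unadjusted p below 0.05 there were 3 members, HDAC9 higher and DNMT3A and BRD3 lower, or 6.38% of the 47, beside 19.1% of all tested genes. Of these 3, HDAC9 was tested only through its detection after WCE and DNMT3A only through its detection with vehicle, in each case the group where the gene was higher. Without background correction 9 members had such a p, or 19.1%, beside 19.2% of all tested genes. At the level of probes 0 of the 61 kept probes passed and 4 had an unadjusted p below 0.05, where 0.846% of all kept probes passed and 17.9% had such a p. The members' log2 fold changes (WCE over vehicle) ran from -0.64 to 0.88, with a median of -0.06, and the median over all tested genes was 0.02. Signs were negative for 29 of the 47, or 61.7%, beside 47.8% of all genes. The median size of the change, whatever its sign, was 0.19 for the members and 0.19 for all tested genes.

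Whether the arrays of the groups overlapped was counted as well. For 15 members both WCE arrays lay below both vehicle arrays, and for 7 both lay above, together 46.8% of the 47. Over all tested genes 50.3% did not overlap, 24.1% with WCE below and 26.2% with WCE above. The within-group spread of the members was small, with a median SD of 0.10 between WCE arrays and 0.08 between vehicle arrays (log2, n = 2 each), beside 0.14 and 0.11 over all tested genes.

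Because no member was called, the intervals of the differences show which sizes of change the arrays allow. The 95% interval of the limma fit lay within a 2-fold change in either direction for 45 of the 47 genes and within 1.5-fold for 23. Over all tested genes these shares were 90.9% and 47.6%. The exceptions at 2-fold were HDAC9, whose interval reached 1.39, and DNMT3A, whose interval reached -1.07. These intervals are not adjusted for the number of genes and rest on limma's pooled variance, and for dim probes they hold on the scale set by the background correction.

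**Figure D1:**
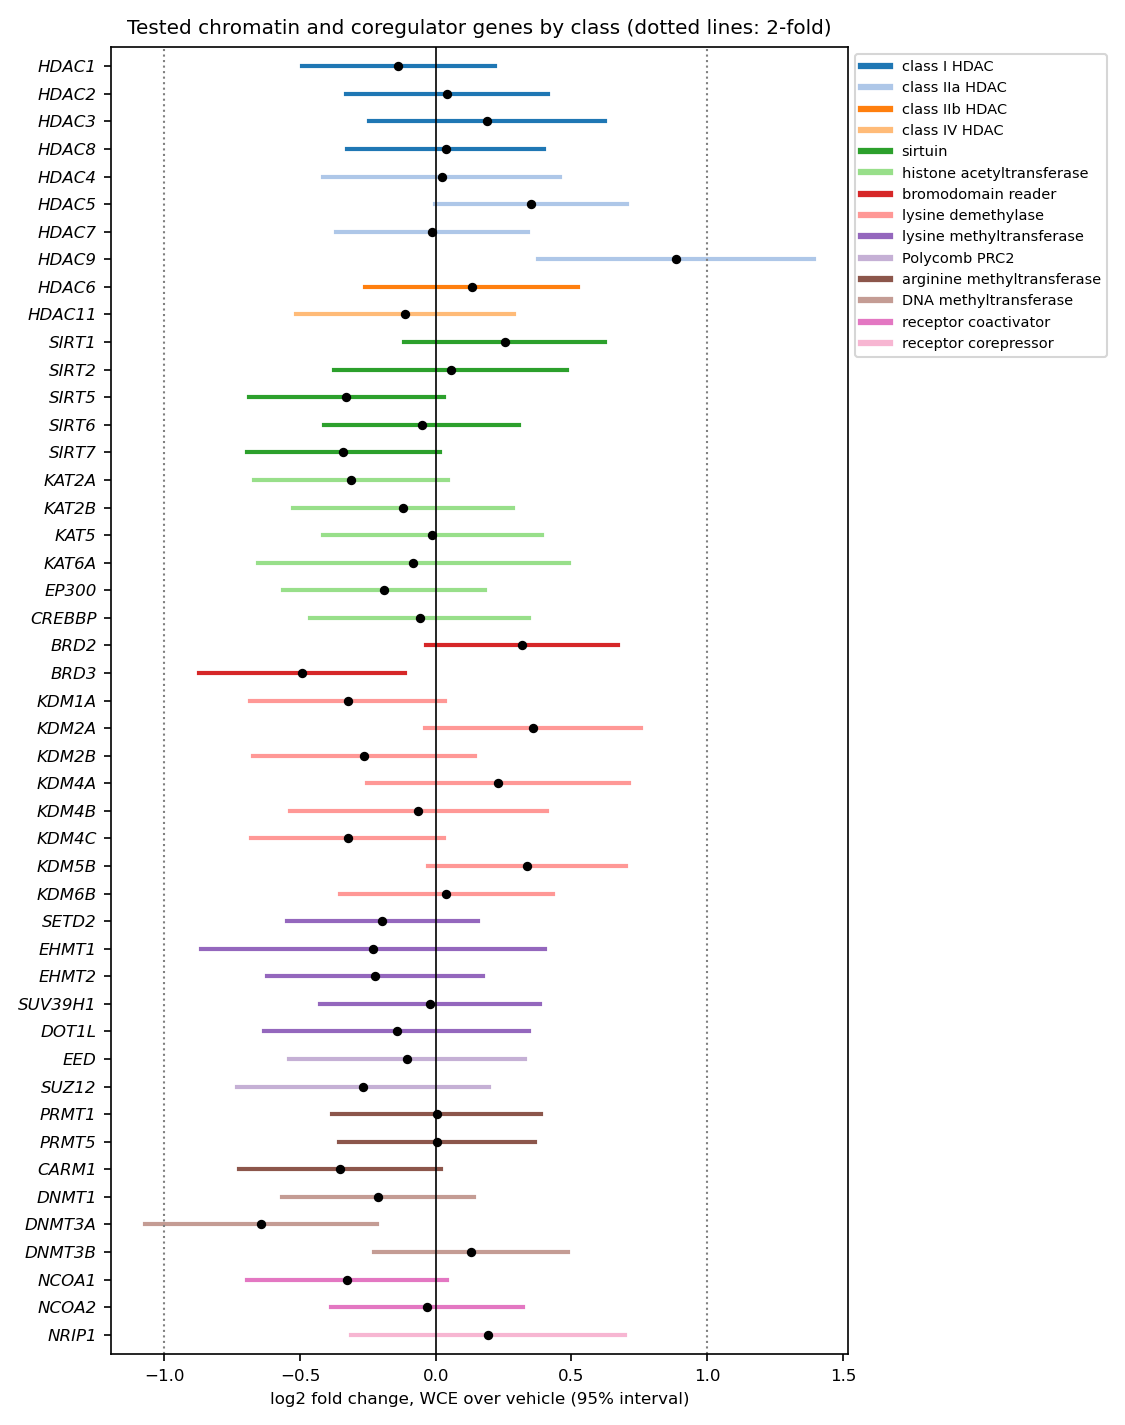
Log2 fold change of the 47 tested genes, WCE over vehicle, with the 95% interval of the limma fit (x axis), 1 gene per row and coloured by enzyme class. Dotted lines mark a 2-fold change. The intervals of HDAC9, DNMT3A and BRD3 leave out 0, and those of HDAC9 and DNMT3A extend past 2-fold.

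The zinc-dependent histone deacetylases of class I, HDAC1, HDAC2, HDAC3 and HDAC8, are mostly nuclear enzymes, and HDAC1, HDAC2 and HDAC3 are the catalytic subunits of the large corepressor complexes. Their log2 fold changes were -0.14, 0.04, 0.19 and 0.04. HDAC1 had log2 signals of 13.12 and 13.23 on the WCE arrays, against 13.32 and 13.31 on the vehicle arrays, so the groups did not overlap, while the other 3 did. The interval of HDAC1 ran from -0.49 to 0.22.

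Class IIa deacetylases shuttle between nucleus and cytoplasm and repress MEF2 transcription factors. HDAC9 had the smallest p of all members. Its log2 signals were 5.97 and 6.16 on the WCE arrays, against 4.84 and 5.52 on the vehicle arrays, and its raw signals were 122.1 and 118.8 after WCE, against 78.2 and 97.6 with vehicle. Both WCE arrays lay above both vehicle arrays, which differed widely from each other (SD 0.48, n = 2). The log2 fold change was 0.88 ± 0.23 (SE), with an unadjusted p of 0.00343 and an adjusted p of 0.0913 (limma). Both WCE arrays detected the probe, but only 1 vehicle array did, so HDAC9 was tested only through the group in which it was higher. The difference was 0.45 without background correction, 0.55 without vehicle replicate 1 (adjusted p = 0.45) and 1.23 without vehicle replicate 2 (adjusted p = 0.051). The other 3 probes of HDAC9, which the annotation ties to other RefSeq transcripts, were detected on no array, with values of -0.05, -0.02 and -0.01.

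HDAC5, also of class IIa, had 5.99 and 6.0 on the WCE arrays, against 5.60 and 5.68 on the vehicle arrays. The groups did not overlap and lay close within each pair, and the log2 fold change was 0.35 (interval from just below 0 to 0.71, adjusted p = 0.263). Without background correction it was smaller, at 0.18. Another HDAC5 probe, which the annotation ties to the same transcript, did not reach the detection rule. It was detected on 1 vehicle array and no WCE array, with a value of -0.002 and overlapping groups. HDAC4 and HDAC7 had 0.02 and -0.01, with overlapping groups. HDAC6, the cytoplasmic tubulin deacetylase of class IIb, had 0.13, and HDAC11, the sole class IV enzyme, had -0.11 with a probe detected on 1 of the 2 WCE arrays.

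Sirtuins are NAD-dependent deacylases that link chromatin and metabolism to the energy state of the cell. SIRT1, a nuclear deacetylase of p53 and of histones, had 8.74 and 8.53 on the WCE arrays, against 8.34 and 8.42 on the vehicle arrays (log2 fold change 0.25, adjusted p = 0.449). SIRT7, a nucleolar sirtuin, had 7.35 and 7.44 after WCE, against 7.75 and 7.72 with vehicle. SIRT5, the mitochondrial desuccinylase, had 7.92 and 8.01 after WCE, against 8.35 and 8.24 with vehicle. Groups did not overlap for any of these genes: SIRT1 was on the higher side after WCE, and SIRT7 (-0.34, adjusted p = 0.283) and SIRT5 (-0.33, adjusted p = 0.304) were on the lower side. The 2 dimmer kept probes of SIRT5 had -0.18 and -0.11 with overlapping groups. SIRT2 and SIRT6 had 0.06 and -0.05, and SIRT3 did not reach the detection rule. The second kept probe of SIRT2 had 0.32, with WCE arrays above vehicle arrays and an adjusted p of 0.416 over all probes.

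**Figure D2:**
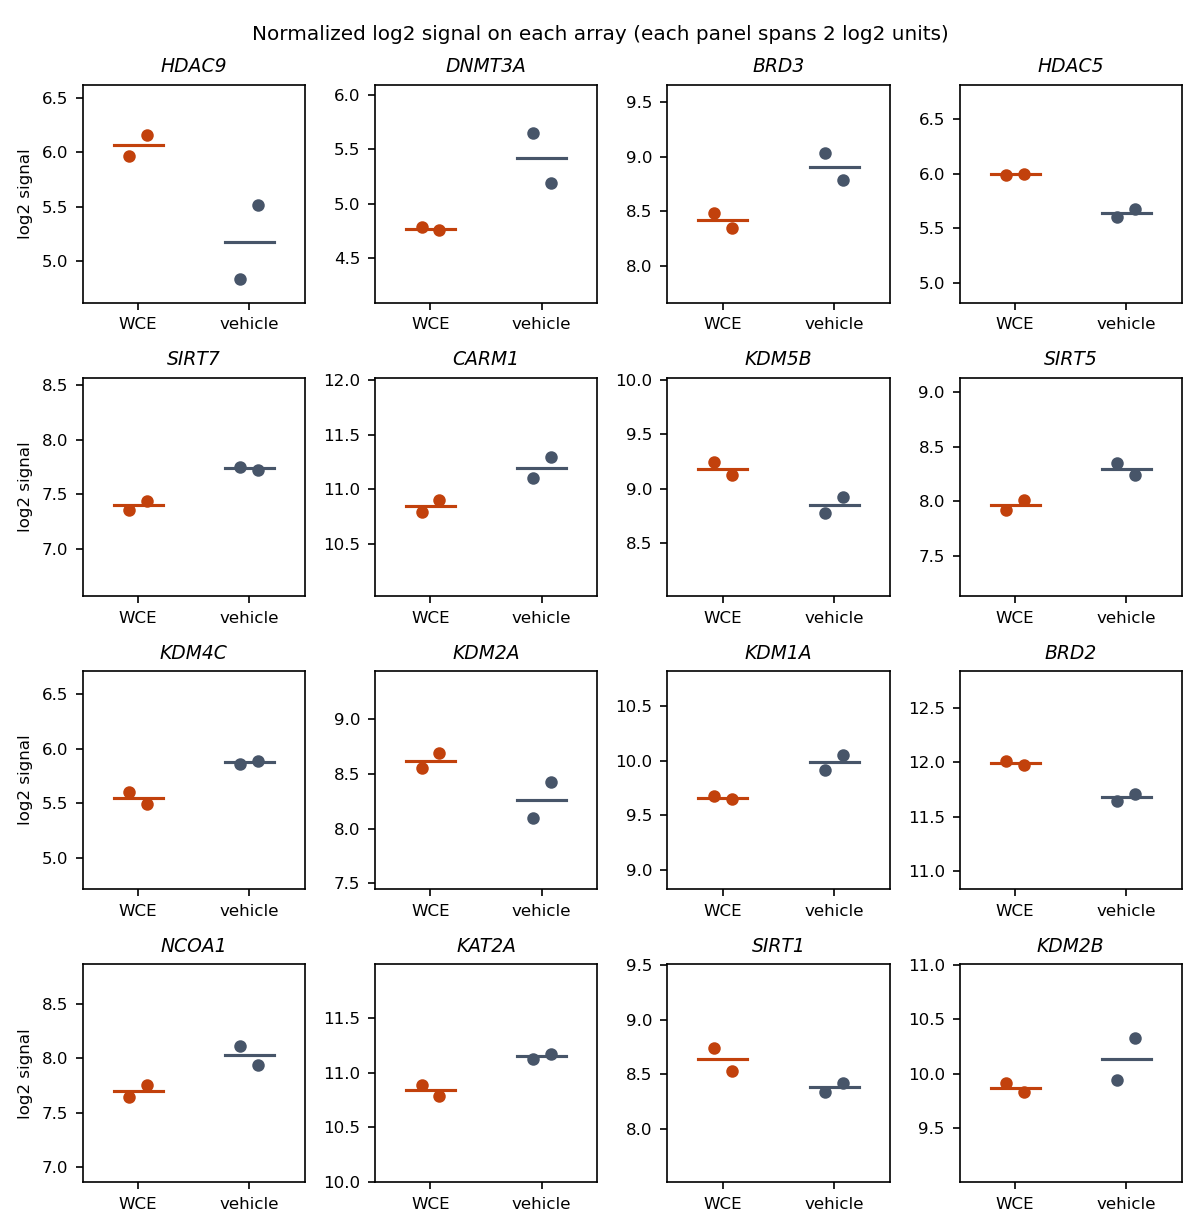
Normalized log2 signal (y axis) on each of the 4 arrays for the 16 members with the smallest p, WCE left and vehicle right, with points for arrays and bars for group means. Every panel spans 2 log2 units. In each of these genes the groups do not overlap, which the choice by smallest p favours. Without that choice the groups did not overlap in 46.8% of the 47 tested members and in 50.3% of all tested genes.

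Histone acetyltransferases had negative log2 fold changes with their brightest probes, and none passed. The signs depended on the scaling: with median scaling CREBBP (0.05), KAT5 (0.05) and KAT6A (0.04) were positive, and the second kept probes of KAT2B and KAT5 had 0.05 and 0.10. KAT2A, the catalytic subunit of the SAGA coactivator complex, had 10.89 and 10.78 on the WCE arrays, against 11.13 and 11.17 on the vehicle arrays (log2 fold change -0.31, adjusted p = 0.323). EP300 had 7.01 and 6.81 after WCE, against 7.15 and 7.04 with vehicle (-0.19, adjusted p = 0.581). These were the 2 members of the class whose groups did not overlap. CREBBP, the paralog of EP300, had -0.06, and a dimmer second probe of CREBBP had -0.52 with an adjusted p of 0.35 over all probes. That second probe was detected on 1 WCE array and kept only through the vehicle group, and its groups overlapped. KAT2B, KAT6A and KAT5, the catalytic subunit of the TIP60 complex, had -0.12, -0.08 and -0.01. The median of the 6 was -0.10.

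BRD2 and BRD3, BET family readers of acetylated histones, lay on opposite sides. BRD3 had 8.49 and 8.35 on the WCE arrays, against 9.03 and 8.79 on the vehicle arrays, with raw signals of 459.9 and 360.3 after WCE, against 557.2 and 475.1 with vehicle. Its log2 fold change was -0.49 ± 0.17 (SE), with an unadjusted p of 0.0168 and an adjusted p of 0.164. BRD2 had 12.01 and 11.98 after WCE, against 11.65 and 11.71 with vehicle, a log2 fold change of 0.32 (interval -0.04 to 0.67, adjusted p = 0.312). Neither pair of groups overlapped, and neither gene passed. The difference between BRD2 and BRD3 was not tested.

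Lysine demethylases split evenly, with 4 positive and 4 negative log2 fold changes among the 8 tested and a median of -0.01. KDM1A, known as LSD1 and a subunit of the CoREST complex, had 9.68 and 9.64 on the WCE arrays, against 9.92 and 10.05 on the vehicle arrays (-0.32, adjusted p = 0.312). KDM5B, which removes activating methyl marks from histone H3 and is often abundant in prostate cancer, had 9.24 and 9.13 after WCE, against 8.78 and 8.93 with vehicle (0.34, adjusted p = 0.304). KDM2A, a CpG island-binding demethylase, had 8.56 and 8.69 after WCE, against 8.10 and 8.43 with vehicle (0.36, adjusted p = 0.312). KDM5B and KDM2A were on the higher side after WCE on both arrays, and KDM1A was on the lower side.

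KDM4C, a demethylase of repressive histone marks, had 5.61 and 5.49 on the WCE arrays, against 5.86 and 5.89 on the vehicle arrays (-0.32, adjusted p = 0.307). KDM2B, a subunit of a variant Polycomb complex, had 9.91 and 9.83 after WCE, against 9.94 and 10.33 with vehicle (-0.26, adjusted p = 0.476), and its second kept probe had 0.22. The groups of both genes did not overlap, but those of KDM2B were separated by less than the spread within the vehicle pair. KDM4A, KDM4B and KDM6B, the last a demethylase of Polycomb marks, had 0.23, -0.06 and 0.04 with overlapping groups.

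Lysine methyltransferases had negative log2 fold changes without passing, but SUV39H1 was at 0.07 with median scaling, and EHMT1, DOT1L and SUV39H1 reached 0.17, 0.10 and 0.16 with an array left out. SETD2, which marks the bodies of transcribed genes, had -0.20 with groups that did not overlap, and EHMT2, known as G9a, had -0.23 with groups that did not overlap. EHMT1, the partner of EHMT2, had -0.23 with the widest standard error of any member, 0.28, and overlapping groups. DOT1L and SUV39H1, the heterochromatin methyltransferase, had -0.14 and -0.02. EED and SUZ12, the core subunits of the Polycomb repressive complex PRC2 beside its catalytic subunit, had -0.10 and -0.27. The groups of both PRC2 subunits overlapped. With an array left out EED ran from -0.34 to 0.13 and SUZ12 from -0.54 to 0.002, so neither kept its sign.

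PRMT1, the main arginine methyltransferase of the cell, had a log2 fold change of 0.00 (interval -0.38 to 0.39) and PRMT5, which makes symmetric dimethylarginine, also 0.00 (interval -0.36 to 0.37). The second kept probe of PRMT5 had 0.20, with 10.44 and 10.56 after WCE, against 10.18 and 10.42 with vehicle, so both WCE arrays were above both vehicle arrays (adjusted p over all probes 0.599). CARM1, which binds p160 coactivators and methylates histone H3 at receptor targets, had 10.79 and 10.91 on the WCE arrays, against 11.10 and 11.30 on the vehicle arrays. Both WCE arrays lay lower, and the log2 fold change was -0.35 (interval -0.72 to 0.02, adjusted p = 0.287).

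DNMT3A, a de novo DNA methyltransferase, was detected on both vehicle arrays and on neither WCE array. Its log2 signals were 4.78 and 4.76 on the WCE arrays, against 5.65 and 5.19 on the vehicle arrays, with raw signals of 77.2 and 74 after WCE, against 102.8 and 87.9 with vehicle. The probe was not above background after WCE, so the group means allow only a bound, at least 1.21-fold lower with WCE. That bound leaves out the spread of the arrays. The 95% interval of the fit ran from -1.07 to -0.22, and the adjusted p was 0.124. The fitted log2 difference was -0.64 ± 0.19 (SE, unadjusted p 0.00767), -0.33 without background correction and -0.41 without vehicle replicate 1 (adjusted p = 0.588). Without vehicle replicate 2 it was -0.88 (adjusted p = 0.16). The other 2 probes of DNMT3A were detected on no array. DNMT3A passed the detection rule only through the vehicle group, where it was higher. With vehicle signals as low as those after WCE it would not have been tested.

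DNMT1, which copies methylation onto newly replicated DNA, had 12.60 and 12.66 on the WCE arrays, against 12.87 and 12.82 on the vehicle arrays. The groups did not overlap, and the log2 fold change of -0.21 did not pass (interval -0.57 to 0.14, adjusted p = 0.508). DNMT3B, the other de novo enzyme, had 0.13 with its brightest probe, and its other kept probes had -0.28 and -0.15, so its sign depended on the probe. No TET dioxygenase, the enzymes that oxidise methylcytosine, could be tested.

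**Figure D3:**
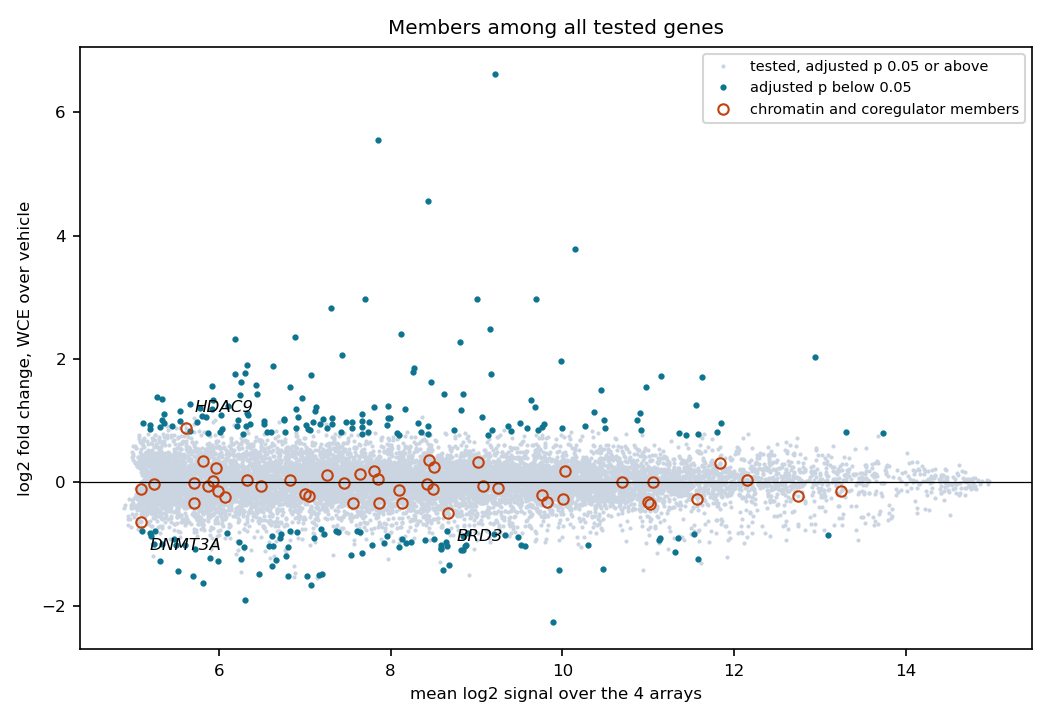
Log2 fold change, WCE over vehicle (y axis), against the mean log2 signal over the 4 arrays (x axis) for the 12136 tested genes. Filled dark points are the 229 genes past limma's adjusted p of 0.05, and open circles are the 47 members, none of which is among them.

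Among the receptor coregulators, NCOA1, a p160 coactivator known as SRC-1, had 7.64 and 7.76 on the WCE arrays, against 8.12 and 7.94 on the vehicle arrays. The groups did not overlap, and the log2 fold change was -0.33 (interval -0.70 to 0.04, adjusted p = 0.319). A dimmer probe of NCOA1 was detected on both vehicle arrays and on no WCE array, and was kept only through the vehicle group. Its group means allow only a bound, at least 1.18-fold lower with WCE, which leaves out the spread of the arrays. The 95% interval of its fitted difference ran from -0.84 to -0.03 (adjusted p over all probes 0.248). The remaining probe had -0.06. NCOA2, a second p160 coactivator, had -0.03. NRIP1, a ligand-dependent corepressor, had 8.05 and 7.77 on the WCE arrays, against 7.40 and 8.03 on the vehicle arrays, which overlapped (0.19, adjusted p = 0.695).

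Several kept probes were available for 11 members, and their signs matched for 6 of these, CREBBP, EHMT1, NCOA1, PRMT5, SIRT2 and SIRT5. They differed for DNMT3B, HDAC2, KAT2B, KAT5 and KDM2B. The dimmer kept probes of CREBBP, EHMT1 and NCOA1 passed the detection rule only through the vehicle group, where they were higher. Their matching signs are therefore not independent of that rule. The dimmer kept probe of EHMT1 was detected on no WCE array. No kept probe of the 11 members passed over all probes.

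**Figure D4:**
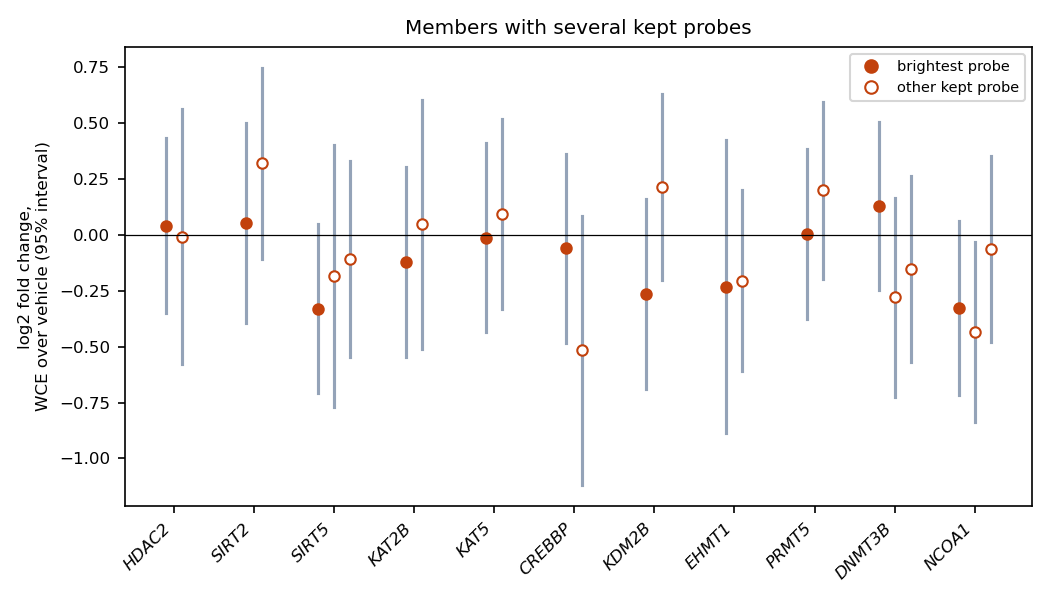
Log2 fold change, WCE over vehicle, with its 95% interval (y axis) for each kept probe of the 11 members that have several (x axis). Filled circles are the brightest probe of a gene and open circles its other kept probes. In 5 of the 11 genes the probes lie on both sides of 0.

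Other chromatin genes and coregulators outside the panel were listed by the same classes, 122 genes of which 106 were tested. Of these 1 rose and 1 fell at limma's adjusted p of 0.05, beside the 1.89% of all genes that passed. Their median log2 fold change was -0.03, and 61.3% had a negative sign, beside 47.8% of all tested genes. An unadjusted limma p below 0.05 was found for 18.9% of them, beside 19.1% of all tested genes. KDM4D, a demethylase close to KDM4A, had 5.65 and 5.67 on the WCE arrays, against 4.77 and 4.69 on the vehicle arrays, where it was undetected, and rose at least 1.5-fold (adjusted p = 0.0229). KDM4D was tested only through its detection after WCE, where it was higher. With WCE signals as low as those with vehicle it would not have been tested. The adjusted p was 0.128 without vehicle replicate 1, 0.153 without vehicle replicate 2 and 0.0576 without WCE replicate 2. Without background correction the log2 change was 0.48 (adjusted p = 0.0654), and the call was also lost with the authors' processed values (0.0564) and without a detection filter (0.0588).

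KMT2E, a SET domain protein of the MLL family, had 7.62 and 7.25 on the WCE arrays, against 8.38 and 8.46 on the vehicle arrays with its brightest probe, and fell by 0.99 on the log2 scale (adjusted p = 0.0328). Its probes disagreed: the other kept probes had 0.47 and 0.73, with WCE arrays above vehicle arrays in both, at adjusted p-values over all probes of 0.216 and 0.103. The mean of its probes gave 0.07 (adjusted p = 0.844), so no direction can be given for the gene as a whole. The call of the brightest probe was also lost without vehicle replicate 1 (0.127), vehicle replicate 2 (0.16) or WCE replicate 2 (0.0935), with median scaling (0.0958) and without a detection filter (0.0998).

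The next smallest p-values were those of PPARGC1B, a coactivator of nuclear receptors in energy metabolism (-0.90 ± 0.21, SE, adjusted p = 0.0721), and EZH2, the catalytic subunit of PRC2 that works with EED and SUZ12 (-0.62 ± 0.16, adjusted p = 0.0913). All 3 kept probes of EZH2 were on the negative side, at -0.62, -0.41 and -1.18. EZH2 had 9.14 and 9.0 with its brightest probe on the WCE arrays, against 9.70 and 9.69 on the vehicle arrays. It did not pass in the main setting. It passed when background correction was omitted (-0.58, adjusted p = 0.0368) or the authors' log2 values were used (-0.57, adjusted p = 0.0396). Those settings called more genes over all tested, 388 and 402, against 229 in the main setting. The authors' values rank the probes within each array as the raw signals do, so these settings are not independent. With an array left out the log2 change of EZH2 ran from -0.70 to -0.55. PPARGC1B, detected on 1 of the 2 WCE arrays, was tested only through its detection with vehicle, the group in which it was higher. Its log2 change ran from -1.19 to -0.60 with an array left out. UHRF1, which brings DNMT1 to replicating DNA, and the hypoxia-induced demethylase KDM3A had -0.56 and 0.54, at adjusted p-values of 0.112 and 0.13. UHRF1 passed in the settings in which EZH2 did (-0.55, adjusted p = 0.0432, and -0.54, adjusted p = 0.0442), and KDM3A passed in none of the alternatives run. With an array left out the log2 change of UHRF1 ran from -0.61 to -0.51.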

How the data were processed

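Signals were measured on 4 Illumina bead arrays, 2 of WCE-treated and 2 of vehicle-treated 22Rv1 cells, from biotinylated cRNA, per the labels' protocols. The deposited intensities are linear probe signals without normalization between arrays, as their values show, each with a detection p-value, per the file headers. A second deposited table holds log2 values processed in a way that neither labels nor headers state. Within each array they rank the probes as the raw signals do (Spearman's rho 1). Column medians were 6.40 on all 4 arrays, so their scale is log2 and genes were not centred.

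In limma 3.58.1 (R 4.3.3) signals were background-corrected by normexp (offset 16), the detection p-values standing in for negative control beads, log2-transformed and quantile-normalized. The platform annotation gives 1 gene symbol for 30112 of 47320 probes, several for 8 and none for 17200. A RefSeq lookup (assembly GRCh38.p14) by gene number updated 0 symbols. The detection rule kept 21996 probes, 16447 of them named. The brightest stood for each gene. lmFit and eBayes compared the groups over 12136 genes, with 2 residual and 7.12 prior degrees of freedom and Benjamini-Hochberg adjustment. The same fit was run over probes. With 2 arrays against 2, an exact two-sided permutation p cannot fall below 0.333, so calls rest on the pooled variance, and the number of arrays limits the precision.

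The panel, its classes, the list of other chromatin genes and the tests were chosen with earlier results of these data known. Per-array values are given for the 16 members with the smallest p and for members undetected in 1 group. Those of HDAC1, EP300, DNMT1, NRIP1, the second PRMT5 probe, KDM4D, KMT2E and EZH2 were added after their values were seen. Of the other chromatin genes, those called and up to 6 with the smallest p are named. For a bound, each array that missed a probe was given the lowest signal of any detected probe, or the probe's own value if that was higher. Their mean was compared with the mean of the brighter group, so a bound leaves out the spread of the arrays. The closing section varies background correction, scaling (median, cyclic loess), source (the authors' log2 values), filtering, the use of several probes, blocking by replicate number and the arrays included.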

Additional observations from a re-analysis of the deposited data

How the results depend on the processing

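The count of members called was 0 higher and 0 lower in every alternative run except the replicate block, where 1 member was higher, HDAC9 (adjusted p = 0.00358), with 1 member probe called. The replicate numbers are not known to pair the arrays: deviations of the arrays numbered 1 from their group means correlated at r = -0.12 across probes. Under that block 745 genes were called over all tested, 4 of them other chromatin genes, PPARGC1B included (adjusted p = 0.00269). A block with crossed numbers, added after the data were seen, called 167 genes, of which 0 were members and 2 other chromatin genes. No member changed its call when an array was left out, a fit which takes the spread of the lone array from the remaining pair. The share of members with an unadjusted p below 0.05 was 6.38% (all genes 19.1%), against 19.1% without background correction (19.2%), 19.1% with the authors' processed values (19.3%), 12.8% with median scaling (18.7%), 25.5% of 51 without a detection filter (13.6%) and between 2.04% (10.5%) and 12.8% (21.8%) with an array left out. Over all genes the count was 229, against 388 without background correction, 402 with the authors' processed values, 130 with median scaling, 53 without a detection filter and between 75 and 860 with an array left out, the highest without WCE replicate 1. Calls were 62.4% higher in the main setting, 76.9% with median scaling, 79.2% without a filter, 44.8% with the replicate block and 38.4% without WCE replicate 1. Other chromatin genes called numbered 1 with median scaling, 1 with the mean of probes, 0 without a filter and between 0 and 6 with an array left out. KMT2E turned to 0.073 with the mean of probes. The members' median log2 fold change was -0.016 with median scaling, under which the median of all genes was 0.09, and between -0.08 and -0.04 with an array left out. Of the 47 members, 22 kept their sign in all alternatives and 25 did not, none of these 25 past the threshold where its sign changed. The cause of these differences was not tested.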
